A study of Serinus canaria and Ploceus bicolor and Uraeginthus cyanocephalus with 155 samples.

Results

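Male and female adult canaries (Serinus canaria) that were neither breeding nor singing were compared in the entopallium. The comparison used every entopallium array of untreated short-day canaries whose labels gave breeding as No and song behaviour as absent. These were 11 of the 155 arrays of the series, 6 from males and 5 from females, each hybridised with RNA of a single bird. All 11 birds shared the species, the adult age, the short day light cycle and the lack of testosterone, so sex was the only labelled difference between the groups. The study's methods state that song was monitored individually before tissue was collected, which is the basis of the label of absent song. The remaining canary arrays came from HVC and cerebellum of non-breeding, non-singing birds, and from birds in other states. Breeding canaries were kept on long days, and their males sang while their females did not. Short-day canaries of both sexes with testosterone implants sang, and so did a group of untreated short-day females. HVC and entopallium were sampled in each of these states, and cerebellum also in breeding birds. Further arrays came from HVC and entopallium of breeding blue-capped cordon-bleus (Uraeginthus cyanocephalus) and forest weavers (Ploceus bicolor), both sexes of which sang.

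The entopallium is the part of the songbird forebrain that receives visual input relayed from the optic tectum through the thalamus. It lies outside the song control system, the set of nuclei, with HVC among them, that produces learned song, and it is often sampled beside HVC as a region without a role in singing. In birds the male is the sex with a pair of Z chromosomes, while the female carries a single Z and a W. Dosage of Z-linked genes is only partly balanced between the sexes in birds, and genes retained on the W are transcribed in females only. The probes of the array were designed on male zebra finch sequence, so canary RNA was measured by cross-species hybridisation.

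A value was obtained for 26061 transcripts on every array, on a log2 scale. A difference of 1 on this scale is therefore a doubling, and all differences below are the male level minus the female level. None of the 26061 transcript identifiers occurred among the 17915 genes of the canary reference table used here. The transcripts are consequently given by identifier, without gene name, chromosome or sequence, and neither the Z-linked genes nor marker genes of the entopallium or of other cell types could be looked up. The dissected tissue holds many cell types, and fewer cells of a type cannot be told apart from less RNA per cell. Median levels of the 11 arrays lay between 7.29 and 7.37, and 0 of the 55 pairs of arrays were identical. Pairs of the same sex correlated across transcripts with r between 0.984 and 0.993 (mean 0.989), and pairs of different sex with a mean r of 0.987. Female replicate 5 stood apart from the other females, with the lowest mean correlation to its own sex (0.985). Female replicate 2 was the only bird that correlated better with the other sex (mean r 0.9895) than with its own (0.9886). On the first principal component of the 11 arrays (23.6% of the variance) it lay at 1.04, closer to the lowest male (2.59) than to the next female (-8.05). The low end of the scale also moved with sex, because the 1st percentile of an array was 2.91 to 3.01 in males and 2.80 to 2.90 in females, without overlap. The part of this shift in the differences of weakly measured transcripts was not tested.

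The sex difference in the non-breeding entopallium was dominated by male-biased transcripts. Transcripts were called sex-biased where the Benjamini-Hochberg adjusted p of limma was below 0.05 and the sexes differed by 0.5 or more on the log2 scale. By this rule 144 of 26061 transcripts were sex-biased (0.553%). Of these, 123 were male-biased (0.472% of all transcripts) and 21 were female-biased (0.0806%). Most of the differences were small. The male-biased transcripts had a median log2(fold change) of 0.58, with quartiles of 0.54 and 0.64, and 120 of the 123 (97.6%) stayed below 1. The female-biased transcripts had a median of -0.68, with quartiles of -0.84 and -0.59, and 19 of the 21 (90.5%) had an absolute value below 1. Across all transcripts the median difference was 0.03, with quartiles of -0.07 and 0.12, and the male mean was the higher for 59% of them.

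**Figure D1:**
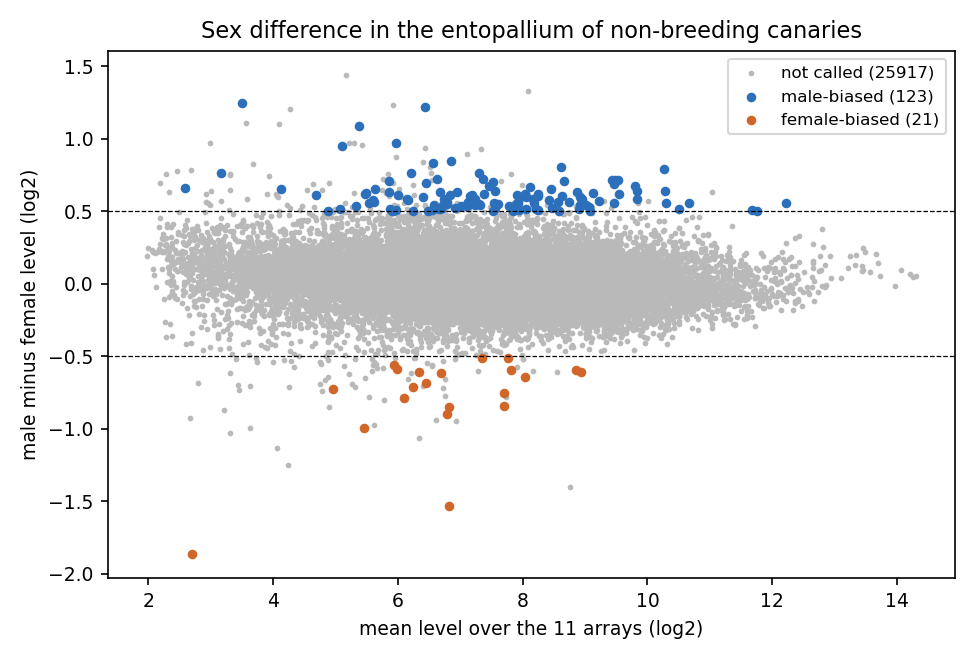
Male minus female level (log2, vertical axis) against the mean level over the 11 arrays (log2, horizontal axis) for each of 26061 transcripts, with the 123 male-biased transcripts in blue, the 21 female-biased in orange and the fold change limits of 0.5 and -0.5 dashed. Most coloured points lie just beyond the limits, and the female-biased ones are fewer. The coloured points furthest from 0 are the female-biased ENSTGUT00000016916 (-1.86), whose males lie at the floor of the arrays, and XM_002193981 (-1.53).

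The fold change limit set the size of the lists more than the adjusted p did. Without it 953 transcripts passed the adjusted p (3.66%), of which 673 were higher in males and 280 in females. The smallest absolute difference among the sex-biased transcripts was 0.5002, and the largest among those that passed the adjusted p but not the fold change was 0.4984. Conversely, 313 transcripts differed by at least 0.5 in absolute value, and 169 of them did not pass the adjusted p. Leaving out 1 array at a time gave 129 to 197 sex-biased transcripts. The highest number was reached without female replicate 5, where 39 transcripts were female-biased instead of 21, and 35 were female-biased without female replicate 2.

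Complete separation of the birds was common among the male-biased transcripts. For 111 of the 123 every male lay above every female, against 825 of all transcripts (3.17%). For 13 of the 21 female-biased transcripts every female lay above every male, against 431 of all transcripts (1.65%). Because the lists were called on the same 11 arrays, these counts describe the lists and are no separate evidence.

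Male-biased transcripts were found at all levels of expression. With all transcripts ranked by mean level and cut into 4 equal bins, there were 24, 35, 27 and 37 of them from the lowest bin to the highest. The corresponding counts of female-biased transcripts were 6, 7, 6 and 2, the smallest count being in the bin of the most strongly measured transcripts. The median mean level was 7.46 for male-biased, 6.80 for female-biased and 7.34 for all transcripts. The female-biased transcripts were the more variable between birds, with a median standard deviation within a sex of 0.23, compared with 0.15 for the male-biased and 0.13 for all transcripts. By the form of the identifier, 50 of the male-biased and 8 of the female-biased transcripts belonged to the 11936 that begin with ENSTGUT, and 37 and 12 to the 10482 that begin with XM. With both directions together, 0.486% of the ENSTGUT and 0.467% of the XM identifiers were called, against 0.553% of all transcripts.

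The transcript with the smallest adjusted p was female-biased. In the males XM_002193981 lay between 5.77 and 6.35 (median 6.13), and in the 5 females it was 7.75, 7.76, 7.62, 7.61 and 7.51. The sexes were separated by a gap that was wider than the range within either sex. Males averaged 6.12 ± 0.21 (SD, n = 6) and females 7.65 ± 0.10 (SD, n = 5), a difference of -1.53 (SE 0.097, limma adjusted p = 3.03e-05).

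ENSTGUT00000016916 was also female-biased, but its males were at the floor of the arrays and its females were scattered. Its level in males lay between 1.24 and 2.46 (median 1.75), and in the females it was 5.66, 2.58, 3.11, 4.25 and 3.02. All 6 males lay below the 1st percentile of their arrays. So did the lowest female, replicate 2 (2.58, against a 1st percentile of 2.85), which exceeded the highest male only narrowly. The means were 1.86 ± 0.48 (SD, n = 6) and 3.72 ± 1.24 (SD, n = 5), which gave a measured difference of -1.86 (SE 0.47, limma adjusted p = 0.0475). With all males that low on the scale, neither the size of this difference nor its rank among the transcripts is well defined. This call was lost without any 1 of the 6 males (adjusted p between 0.0563 and 0.0958), without female replicate 3 (0.0761), without female replicate 4 (0.101), with the replicate number as a block (0.125) and in a model over 7 canary groups (0.0912).

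Among male-biased transcripts the largest difference belonged to XM_002196678, also at a low level. Males ranged from 3.54 to 4.66 (median 4.13), while the females had 3.37, 3.33, 2.59, 2.07 and 2.77. The lowest males were close to the highest females, and 3 of the females lay below the 1st percentile of their arrays. The 6 males averaged 4.07 ± 0.46 (SD) and the 5 females 2.83 ± 0.54, a difference of 1.24 (SE 0.26, limma adjusted p = 0.0211). The call was lost without female replicate 3 (adjusted p = 0.0661), with the replicate number as a block (0.0698) and in a model over 7 canary groups (0.0723).

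XM_002193330 showed a difference of almost the same size at a higher level. Its level was 6.49 to 7.43 in males (median 6.98), compared with 5.97, 5.48, 6.07, 5.85 and 5.45 in the females. All males were above all females. The means of 6.98 ± 0.33 (SD, n = 6) and 5.76 ± 0.29 (SD, n = 5) differed by 1.22 (SE 0.16, limma adjusted p = 0.00197).

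**Figure D2:**
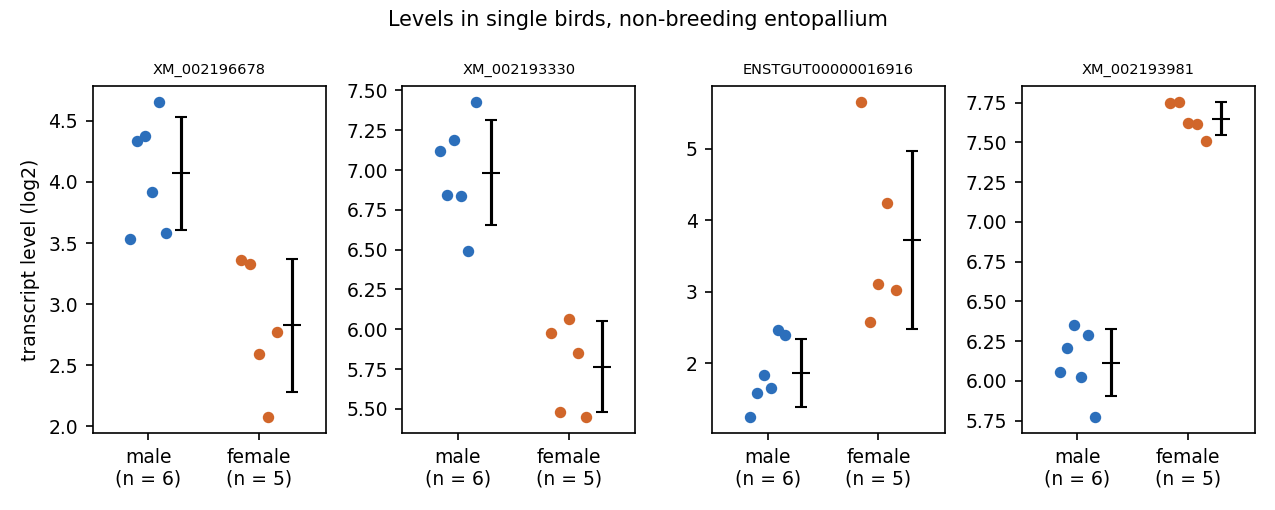
Level (log2, vertical axis, a separate scale in each panel) of 4 transcripts in the 6 male (blue) and 5 female (orange) birds, 1 point per bird, with the mean and standard deviation of each sex in black. Birds of a sex lie close together for XM_002193981 and are widely scattered among females for ENSTGUT00000016916.

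Averaged over the 123 male-biased transcripts, the level was 7.76 to 7.84 in the 6 males and 7.12 to 7.24 in the 5 females. Averaged over the 21 female-biased transcripts it was 6.27 to 6.45 in males and 6.99 to 7.39 in females, with female replicate 1 the highest. Both lists were called on these 11 arrays, so the ranges and the gaps between the sexes describe the lists and are no separate evidence. No single bird of a sex was always the one nearest to the other sex. Among females, replicate 5 was nearest to the males for 44 of the 123 male-biased transcripts and replicate 1 for 34, while for the female-biased transcripts it was replicate 2 for 10 of 21 and replicate 5 for 7. Among males, replicate 4 was nearest to the females for 32 of the 123 and replicate 6 for only 7.

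The same means were then read in canary entopallium of other states, where 6 birds were available per group. For the male-biased list they lay between 7.72 and 7.81 in breeding males and between 7.65 and 7.73 in males with testosterone implants. They lay between 7.16 and 7.31 in breeding females, 7.19 and 7.30 in females with testosterone implants, and 7.21 and 7.33 in non-breeding females that sang spontaneously. Every male of the 3 male groups was above every female of the 4 female groups, which include the groups that called the list. The lowest male (7.65) and the highest female (7.33) were both in groups that did not call it. The female-biased list behaved differently. Its mean was 6.45 to 6.77 in breeding males and 6.54 to 6.76 in testosterone males, while it was 6.73 to 6.97 in breeding females, 6.84 to 6.96 in testosterone females and 6.55 to 6.97 in spontaneously singing females. The sexes of the other states therefore came close to each other or overlapped. The non-breeding non-singing birds, on which the list was called, had the lowest median among males (6.39) and the highest among females (7.15). Arrays of spontaneously singing females had a higher 1st percentile (3.22 to 3.43) than any of the 11 arrays compared here, and the part of this in their values was not tested.

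**Figure D3:**
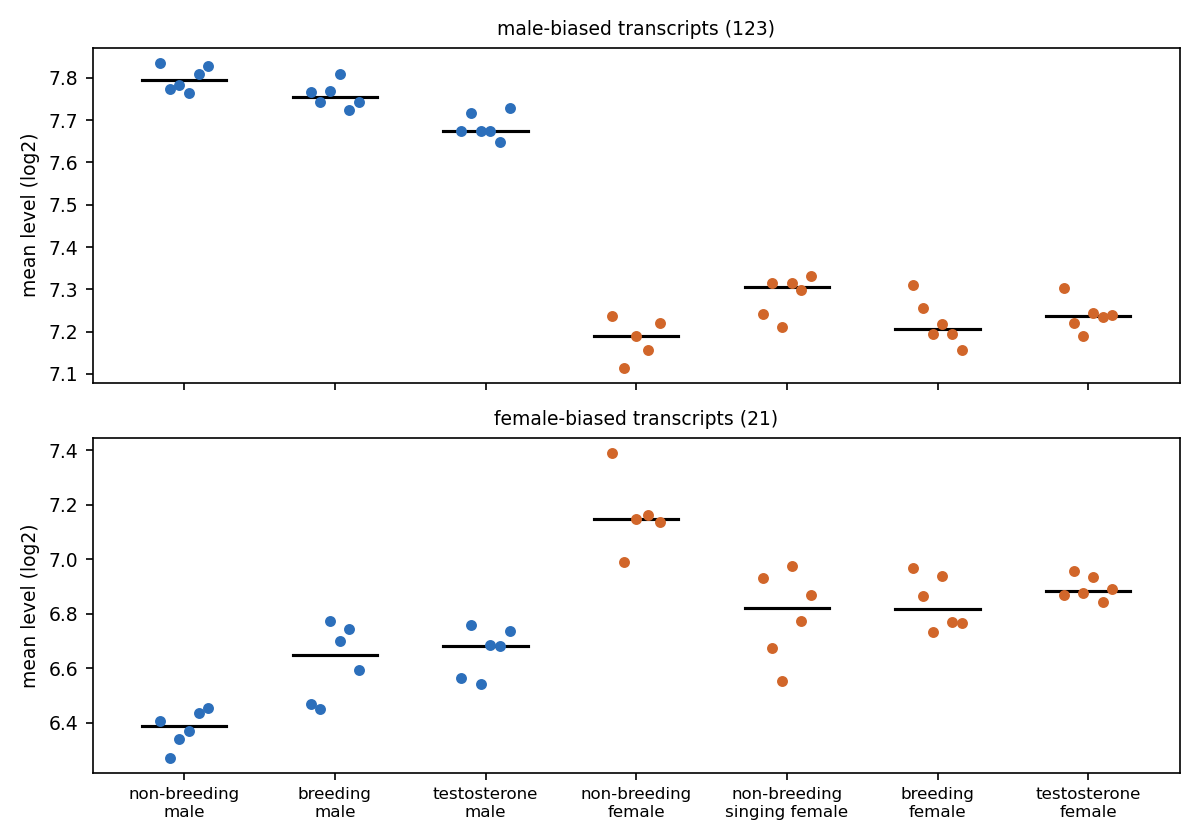
Mean level (log2, vertical axis) of the 123 male-biased (top) and 21 female-biased transcripts (bottom) in each canary entopallium array, 1 point per bird, male groups in blue and female groups in orange, with the group median as a black line. In the top panel the lowest male (7.65) is above the highest female (7.33), whereas in the bottom panel the sexes of the other states come close or overlap.

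Whether the transcripts found here were sex-biased elsewhere was examined in 6 further comparisons of the same kind, with 6 males and 6 females each and no array in common with the 11. By the numbers in the sample titles, all 11 birds also gave an HVC array, and 11 of the 12 arrays of the HVC comparison came from them. The counts in HVC therefore describe another tissue of the same animals and are no independent repeat. Titles of the cerebellum arrays carry no bird number, so it is not known whether they came from the same birds. In each of these comparisons the group counts are read against the share of all transcripts called in that direction. Breeding males sang and breeding females did not, so season and song cannot be told apart there. Testosterone birds of both sexes sang, unlike the 11 birds, so implant and song cannot be told apart either. Hybridisation batch is not stated, so a batch that differed between groups cannot be told apart from sex, season or implant.

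Male-biased transcripts were often male-biased again. In breeding canary entopallium 71 of the 123 (57.7%) were, against 2.29% of all transcripts, and with testosterone implants 56 of the 123 (45.5%), against 2.92%. In the entopallium of cordon-bleus there were 74 (60.2%, against 1.01%) and in that of forest weavers 72 (58.5%, against 0.875%). In non-breeding canaries, 87 (70.7%) were male-biased in HVC, against 1.42% of all transcripts, and 62 (50.4%) in the cerebellum, against 0.675%. Seen from the other lists, these transcripts made up 11.9% of the 598 male-biased in breeding entopallium and 7.37% of the 760 with testosterone, but 35.2% of the 176 in the cerebellum, 31.6% of the 228 in weavers, 28.1% of the 263 in cordon-bleus and 23.6% of the 369 in HVC. The median difference of the 123 was 0.58 in breeding birds, 0.46 with testosterone, 0.64 in HVC, 0.51 in the cerebellum, 0.60 in cordon-bleus and 0.56 in weavers, where the median of all transcripts was between -0.01 and 0.01. Calls in the opposite direction numbered 1 of 123 in breeding entopallium, where 0.955% of all transcripts were female-biased. With testosterone they numbered 5 of 123, where 3.37% of all transcripts were female-biased. In the other 4 comparisons there were 0, against at most 0.276% of all transcripts.

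Female-biased transcripts were found again less evenly. In breeding entopallium 6 of the 21 (28.6%) were female-biased, against 0.955% of all transcripts, and with testosterone 8 (38.1%), against 3.37%. In non-breeding HVC 6 were (28.6%, against 0.276%), and in the non-breeding cerebellum 6 (28.6%, against 0.104%). In the other species 1 of the 21 was female-biased in cordon-bleus (against 0.0192% of all transcripts) and 3 in weavers (against 0.0537%). The median difference of the 21 was -0.25 in breeding and -0.38 in testosterone entopallium, -0.29 in both HVC and cerebellum, -0.14 in cordon-bleus and -0.11 in weavers, compared with -0.68 in the birds they were called in. Opposite calls numbered 2 of 21 in breeding entopallium, against 2.29% of all transcripts male-biased there. In testosterone entopallium they numbered 3 of 21, against 2.92%.

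**Figure D4:**
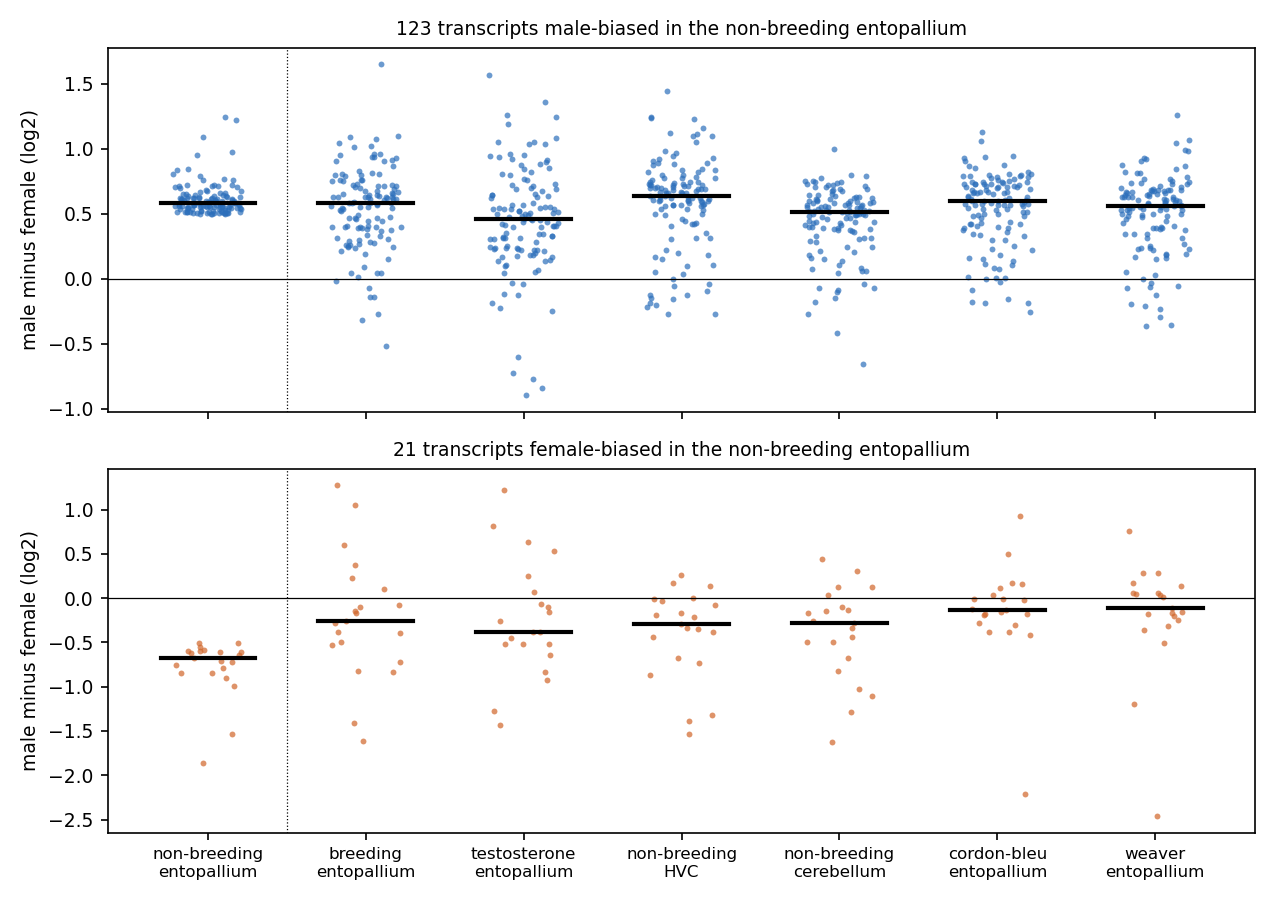
Male minus female level (log2, vertical axis) of each of the 123 male-biased (top) and 21 female-biased transcripts (bottom) in the comparison that called them (left of the dotted line) and in 6 further comparisons, 1 point per transcript, with the median as a black line. Medians of the male-biased list stay between 0.46 and 0.64, whereas those of the female-biased list move from -0.68 to between -0.38 and -0.11. Both lists were called on the values left of the line, and the part of this in the move was not tested.

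The 123 male-biased transcripts differed in how widely they were shared. All 6 further comparisons called 26 of them male-biased, out of 44 transcripts with that property in the whole table, and a further 40 were called in 4 or 5. The 40 were 16 of the 56 transcripts called in 4 and 24 of the 57 called in 5. None of the 6 called 16 of the 123, against 24626 of all 26061 transcripts, and 41 were called in 1 to 3. The 41 were 14 of the 1018 transcripts called in 1, 13 of the 177 in 2 and 14 of the 83 in 3. The 26 shared transcripts had a median difference of 0.58 in the non-breeding entopallium, against 0.57 for the 16 that were called nowhere else. The limit of 0.5 that admitted both sets holds these medians close together. Their medians of level were 8.25 and 6.20, and those of the standard deviation within a sex were 0.13 and 0.20. Over the 7 comparisons the differences of the 26 lay between 0.50 and 1.36, where the lower end is the call limit itself. The 16 had medians of 0.14 in breeding entopallium, 0.12 with testosterone and -0.07 in HVC. The sets were defined by calls in these comparisons, so these values describe the sets and are no separate evidence. Considering canary entopallium only, 44 of the 123 were male-biased in both other states, against 204 of all 26061 transcripts, and 40 in neither, against 24907.

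Of the 21 female-biased transcripts, 10 were called in no further comparison, against 24895 of all 26061 transcripts. Another 7 were called in 1 to 3. The 7 were 4 of the 1102 transcripts called in 1, 1 of the 55 in 2 and 2 of the 5 in 3. A further 3 were called in 4, the only 3 of the table, and 1 was called in all 6. That 1 was XM_002193981, the only transcript of the table with this property. In the non-breeding entopallium the sexes did not overlap for 4 of the 10 called nowhere else and for 5 of the 7, against 1.65% of all transcripts with every female above every male. For the male-biased transcripts called nowhere else, 15 of 16 did not overlap, against 3.17% with every male above every female. The lists were called on these arrays, so the counts describe the lists only. In both other states of canary entopallium 3 of the 21 were female-biased, against 33 of all 26061 transcripts, and in neither 10, against 24967.

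XM_002193981 separated the sexes in nearly the whole series. Many birds gave both an entopallium and an HVC array by their title numbers, so the further pairs of groups are not all independent. The non-breeding HVC pair includes the 11 birds on which the transcript was chosen. XM_002193981 was higher in females in 11 of 11 further pairs of groups, with differences from -2.49 in forest weaver HVC to -1.09 in breeding canary cerebellum. Each was tested with a two-sided exact permutation test, and all 11 passed after Benjamini-Hochberg adjustment over the 44 tests made on the 4 transcripts (adjusted p = 0.00952 in 10 of them, where p = 0.00216 was the smallest the permutations can give). Over all 155 arrays the 72 male arrays lay between 4.07 and 6.35, and 82 of the 83 female arrays were above them, the lowest of these at 6.58. The exception was a forest weaver HVC array labelled female, replicate 4, with 4.17, while the other 5 females of its group had 7.36 to 8.23. The same array also lay in the male range for the mean of the 123 male-biased transcripts, at 7.69, where the other 5 females had 7.03 to 7.20 and the 6 males 7.50 to 7.71. It thus went against its label in both measures, and forest weaver HVC enters no other comparison given here beyond the 4 named transcripts. With that array the difference in forest weaver HVC was -2.49 (exact permutation p = 0.013, adjusted p = 0.0476), and without it -3.10. The array was left out only after its value had been seen, so no test is read from the second difference. In canary entopallium the spontaneously singing females had 7.19 to 7.62, above every male.

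**Figure D5:**
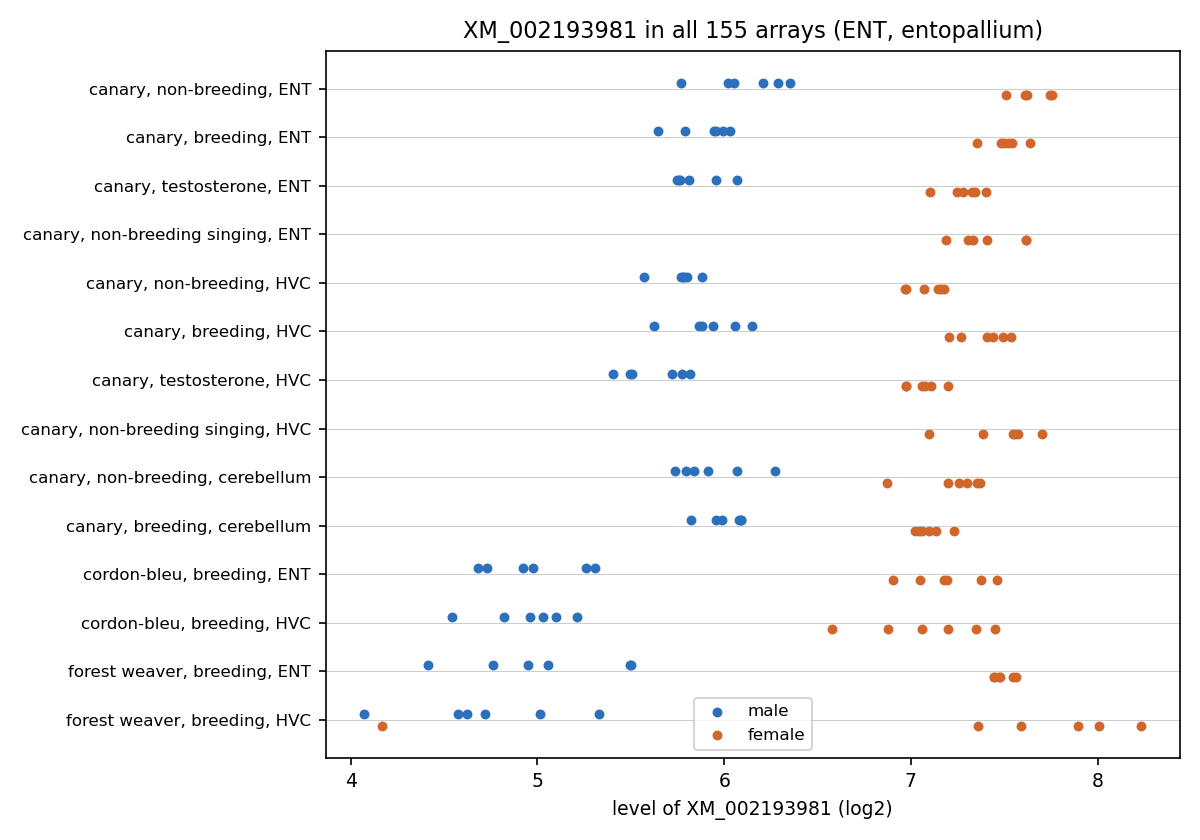
Level of XM_002193981 (log2, horizontal axis) in each of the 155 arrays, by species, state and tissue, with males in blue and females in orange. Males and females form separate ranges in every pair of groups except forest weaver HVC, where 1 array labelled female lies at 4.17.

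The other 3 transcripts with the largest differences had no such recurrence. XM_002196678 passed in 0 of the 11 further pairs of groups (smallest exact permutation p = 0.173), with differences between -0.65 and 0.70. Of these differences 8 were in the male direction and 3 in the female direction. At its low level, a difference that did not pass is not shown to be absent. ENSTGUT00000016916 passed in 0 of 11 as well, and 9 of its 11 differences were in the male direction, up to 2.05 in breeding cerebellum (exact permutation p = 0.0303, adjusted p = 0.103). XM_002193330 passed in 1 of 11, and there the direction was the opposite. With testosterone implants males averaged 5.95 ± 0.36 and females 6.55 ± 0.19 (SD, n = 6 each), a difference of -0.60 (exact permutation p = 0.00649, adjusted p = 0.026). In the spontaneously singing females of the non-breeding season XM_002193330 lay between 5.74 and 7.26 (median 6.94), so that 5 of these 6 birds, at 6.40 or more, were above all 5 non-singing females. The transcript was chosen on arrays where those 5 females were low. In entopallium, non-singing breeding females (6.32 ± 0.90, SD) and testosterone females (6.55 ± 0.19) also averaged higher than they did. Arrays of spontaneously singing females also had a higher 1st percentile, and a link with song was not tested.

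How far the sex difference itself differed by tissue, season and testosterone state was tested with interaction terms in limma, which use the same 11 arrays again. Breeding males and testosterone birds of both sexes sang, so the season and testosterone terms include any effect of song. Hybridisation batch is not stated, so these terms also include any batch that differed between the groups, which was not tested. At any fold, 28.6% of all transcripts passed the limma adjusted p in breeding entopallium and 38.9% in testosterone entopallium, against 3.66% here. Against non-breeding HVC the sex difference differed for 267 transcripts (1.02%), against breeding entopallium for 999 (3.83%) and against testosterone entopallium for 1509 (5.79%). Without female replicate 5 the count against HVC was 413. Most sex-biased transcripts of the non-breeding entopallium were not among them. Against HVC the male-biased difference was larger here for 12 and smaller for 5 of the 123, against breeding birds for 9 and 3, and against testosterone birds for 17 and 6. Of all transcripts, the difference was called more male here for 0.407% against HVC, 1.62% against breeding birds and 3.09% against testosterone birds. It was called less male for 0.618%, 2.21% and 2.7%. For the 21 female-biased transcripts, where a larger difference is a less male one, the numbers were 3 and 1, 6 and 1, and 6 and 0. Since the transcripts were called on the arrays that also enter the interaction, the excess of larger differences is not read as a result.

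The 4 named transcripts were chosen for large differences on these 11 arrays, so their interactions are given as values only, with no test read from them. The difference of XM_002193330 exceeded that in breeding entopallium by 1.29 (SE 0.43), that in testosterone entopallium by 1.82 (SE 0.23) and that in HVC by 1.00 (SE 0.30). For XM_002196678 these values were 0.55 (SE 0.64), 1.06 (SE 0.37) and 0.66 (SE 0.46). XM_002193981 had interactions of 0.08 against breeding birds (SE 0.12), -0.10 against testosterone birds (SE 0.12) and -0.22 against HVC (SE 0.11). No such value is read for ENSTGUT00000016916, because its males lay at the floor of the arrays.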

How the data were processed

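RNA was extracted by the authors from dissected entopallium of single birds and hybridised to a custom Affymetrix exon array with zebra finch probes. The deposited table holds log2 transcript levels made by the authors, and the submitters' processing notes name Affymetrix Expression Console. Neither its version and settings nor any hybridisation batch is stated there or in the methods. Each array carried RNA of a single bird, so the precision of the comparison is limited by its 11 birds. Samples were grouped by the labels for species, tissue, sex, season, treatment and song, and 0 columns of the table were left unmapped.

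The deposited values were used without further normalisation or filter, and no value was missing. Each sex difference was fitted in limma 3.58.1 (R 4.3.3) on the arrays of its 2 groups only, and p-values were adjusted by Benjamini and Hochberg across the 26061 transcripts. Calls needed an adjusted p below 0.05 and a log2 difference of 0.5 or more in either direction, the fold limit of the study's methods, whose own test works on single probes and was not used. Differences between sex differences were interaction terms over 4 groups. Exact permutation tests were made in scipy 1.17.1 (Python 3.11.15). The scripts were tested on simulated data.

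The named transcripts were, by rule, the 2 male-biased and 2 female-biased transcripts with the largest absolute difference among called transcripts whose sexes did not overlap. The comparison and the lists were chosen with earlier results of these data known. Gene lists, cell type markers, the Z chromosome and averaging by gene were planned and not run, because 0 identifiers matched the reference table (canary assembly serCan2020). Alternatives covered total-intensity scaling, quantile normalisation, a filter on the lowest 25% of levels, either call threshold alone, the replicate number as a block, array weights, a trended robust fit, a model over 7 canary groups, and leaving out each array. Replicate numbers of males and females did not pair the samples.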

Additional observations from a re-analysis of the deposited data

Results flagged for a closer look

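Of 22 groups of values tested for a bird far from the others of its sex, 2 stood out, both from female replicate 5. For independent values chance gives about 1 in 20. Both values here were computed over the same 11 arrays and concern the same bird, so they are not set against that rate. On the second principal component of the 11 arrays (16.3% of the variance) the gap of this bird to its nearest neighbour was 0.882 of the range of the females. For the mean correlation with birds of its own sex the gap was 0.744 of the range. The counts of sex-biased transcripts with and without this bird were 144 and 197.

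Sex differences that differed from those of another group, by the interaction test in limma, numbered 267 transcripts against HVC, 999 against breeding entopallium and 1509 against testosterone entopallium. The named transcripts were chosen for large differences on the same arrays, so passing the call rule on the interaction is not read as a result for them. Those that passed it were XM_002196678 against testosterone entopallium (1.06) and XM_002193330 against breeding entopallium (1.29) and testosterone entopallium (1.82). ENSTGUT00000016916 passed it against HVC (-2.12) and testosterone entopallium (-2.50). Its values are measured against males at the floor of the arrays and are listed without being read.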

How the results depend on the processing

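Of the alternatives, none reversed the direction of a transcript called in the main comparison. Total-intensity scaling gave 130 sex-biased transcripts (129 of the 144 shared), quantile normalisation 120 (115), the filter on low levels 125 (114), array weights 173 (131), the trended robust fit 148 (144) and the model over 7 groups 162 (135). The male share of the calls was 85.4% and lay between 77.4% and 89.5% in all settings but the adjusted p alone (70.6%) and the fold change alone (71.6%). The median difference of all transcripts was 0.03 as deposited, 0.02 after scaling and 0.00 after quantile normalisation. With the replicate number as a block, 106 were called (93 shared), and the samples share no more than a number: the correlation of deviations of same-numbered birds lay between -0.07 and 0.11, and 1 of 5 was best with its own number. With the replicate block the interactions counted 981 for season and 1469 for testosterone, and 286 for tissue with the bird as a random block (consensus correlation 0.05). On the adjusted p alone the main comparison gave 953 (673 male, 280 female), breeding entopallium 7441 (3510, 3931), testosterone entopallium 10135 (5369, 4766), HVC 2421 (1489, 932), and the interactions 1419 for tissue, 5505 for season and 5649 for testosterone. The fold change alone gave 313 (224 male, 89 female). Leaving out 1 array gave 129 to 197 calls (109 to 158 male, 15 to 39 female), 193 to 413 interactions for tissue, 857 to 1184 for season and 1326 to 1650 for testosterone.

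XM_002193330 and XM_002193981 were called in every alternative run on them. XM_002196678 was not called with the block (adjusted p = 0.0698) and in the model over 7 groups (0.0723), nor was ENSTGUT00000016916 (0.125 and 0.0912). Both lie in the lowest 25% of levels and were not tested under the filter. The list itself changes when a bird is left out: under testosterone 8 of 21 female-biased transcripts were called again, 5 of 15 without female replicate 1 and 5 of 18 without female replicate 4, and in HVC 6 of 21 and 12 of 39 without female replicate 5. Averaging by gene could not be run. With 5 and 6 birds, and weak transcripts near the floor of the arrays, a difference that did not pass is not shown to be absent.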
